A study of Mus musculus with 6 samples.

Results

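The AP-1 family was examined through 10 genes selected by symbol from the 55254 genes of a whole-liver expression table: *Fos*, *Fosb*, *Fosl1*, *Fosl2*, *Jun*, *Junb*, *Jund*, *Batf*, *Batf3* and *Maff*. All 10 were listed in the table. RNA of whole liver was sequenced from 3 wild-type mice fed CDA-HFD for 7 weeks and from 3 wild-type mice fed a normal diet (ND), labelled as biological replicates. CDA-HFD is a high-fat diet without choline and with defined amino acids, used in mice to bring on steatohepatitis (MASH). The study's methods describe male mice for the CDA-HFD feeding and purchased C57BL/6J mice of 6 to 12 weeks. Because whole liver was used, a change in the number of cells that carry a transcript and a change in that transcript per cell cannot be told apart in any value given here.

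AP-1 proteins carry a basic region that binds DNA and a leucine zipper (bZIP) through which they pair. FOS proteins bind DNA only in pairs, usually with a JUN protein, whereas JUN proteins can also pair with each other, and BATF and small MAF proteins bring other partners. Several of the genes are immediate early genes, which are transcribed within minutes of growth factor, cytokine or stress signals that run through MAP kinases. In the mouse liver, *Jun* is known for its roles in hepatocyte survival and regeneration.

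Levels are TPM (transcript levels corrected for length and scaled to a fixed sum in each library), given for CDA-HFD replicates 1, 2 and 3 and then ND replicates 1, 2 and 3. Means are given with the SD (n = 3 libraries for each diet). Each change is the limma estimate ± SE of the log2 ratio of CDA-HFD to ND, taken on log2(TPM + 1), where the change of a gene of low TPM is understated. A gene was counted as risen or fallen at a Benjamini-Hochberg adjusted p below 0.05 together with a log2 fold change of at least 1 in size. Recovered reads ranged from 16830200 to 18919515 per CDA-HFD library and from 14125652 to 15301200 per ND library. The liver label was met by hepatocyte transcripts in every library, with *Alb*, which encodes albumin, at 12591 ± 701 TPM in CDA-HFD livers and 15514 ± 116 TPM in ND livers.

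All 8 AP-1 genes that were abundant enough to be tested rose on CDA-HFD, and 0 fell. Over all 14730 genes tested, 21.1% rose and 3.79% fell. The 8 genes had a median log2 fold change of 1.92, against 0.32 over all genes tested. *Fos* had the largest change and *Jund* the smallest, apart from quantile normalization, where *Batf3* had the smallest. *Fosb* and *Fosl1* had a mean below 1 TPM over the 6 libraries and were not tested. In all 10 genes, including those 2, every CDA-HFD library lay above every ND library, as it did in 54.9% of the genes tested. The count of genes that rose was not independent of scaling. Median-of-ratios scaling moved the median of all genes to −0.04 and left 6 AP-1 genes as risen, and quantile normalization moved it to −0.10 and also left 6. Over all genes tested, 3115 rose and 558 fell, against 2300 rises and 1033 falls after median-of-ratios scaling, and 1852 rises and 1135 falls after quantile normalization. With no limit on the fold, the AP-1 genes passed in 8 of 8 cases, beside 51.6% of all genes tested that were higher.

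**Figure D1:**
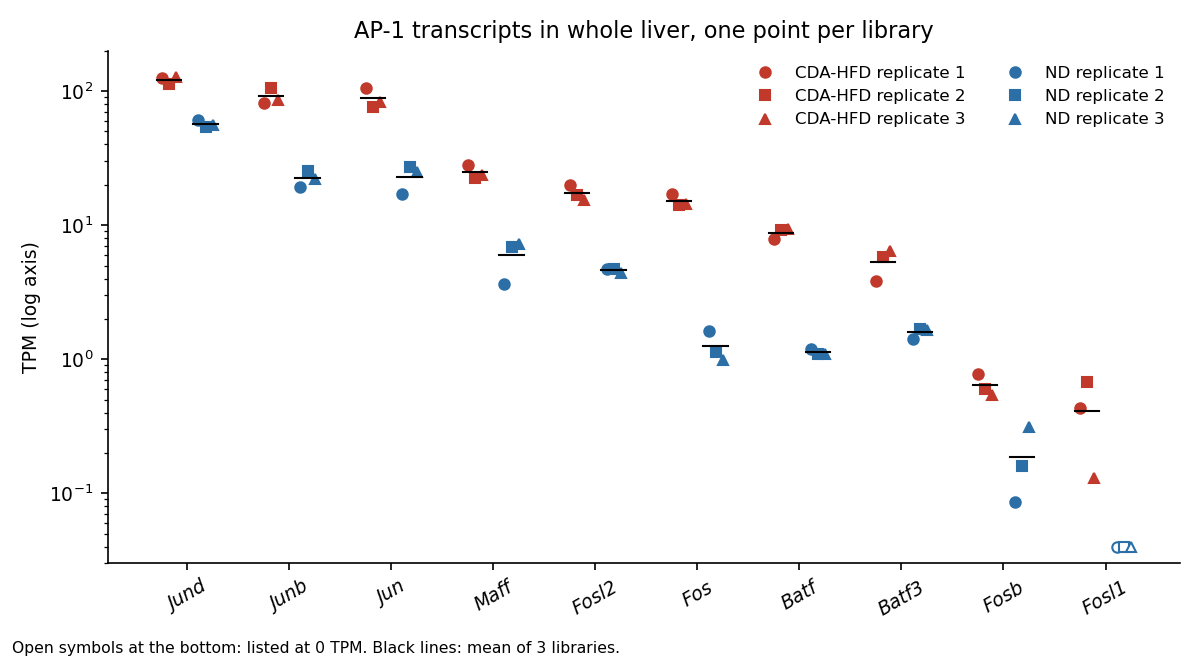
Levels of the 10 AP-1 genes in each library, in TPM on a log axis, with CDA-HFD in red left of ND in blue, 1 symbol shape per replicate number and a black line at the mean of each diet. The red and blue points of each gene do not overlap, *Jund* is the highest gene in both diets, and *Fosl1* is listed at 0 in the 3 ND libraries (open symbols).

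Among the tested FOS genes, *Fos* changed more than *Fosl2*. *Fos* encodes the prototype partner of JUN and lies at chr12:85473890-85477273 on the plus strand (GRCm38, GENCODE M21, as for all gene positions here). Its level was 17.2, 14.2 and 14.3 TPM in CDA-HFD livers and 1.61, 1.14 and 0.984 TPM in ND livers. The lowest CDA-HFD library was thus far above the highest ND library, and the spread within each diet was small beside the gap. The mean was 15.3 ± 1.69 TPM in CDA-HFD livers and 1.25 ± 0.328 TPM in ND livers (12.3-fold), with a log2 fold change of 2.86 ± 0.14 and an adjusted p of 1.05e-06. This change was larger than that of 97.5% of the genes tested. The values rested on 271, 213 and 249 reads in CDA-HFD livers and on 21, 16 and 14 reads in ND livers. The RefSeq promoter window of *Fos* (GRCm38.p6, chr12:85473640-85473939, plus strand) reaches from 250 bases before the transcript start to 50 after it and is shown because *Fos* had the largest change. It is printed in lower case throughout since it held none of the 3 motifs searched and described further on.
*Fos*: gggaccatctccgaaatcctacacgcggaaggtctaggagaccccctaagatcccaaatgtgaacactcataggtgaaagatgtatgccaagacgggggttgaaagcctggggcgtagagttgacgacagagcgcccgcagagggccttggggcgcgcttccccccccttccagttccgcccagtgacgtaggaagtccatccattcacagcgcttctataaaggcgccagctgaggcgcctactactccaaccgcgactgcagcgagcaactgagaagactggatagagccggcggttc

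*Fosl2*, which encodes FRA-2, was the most abundant FOS gene in ND livers. Its level was 19.8, 16.8 and 15.3 TPM in CDA-HFD livers and 4.71, 4.75 and 4.42 TPM in ND livers. The ND libraries lay close together, and all CDA-HFD libraries lay above them. *Fosl2* averaged 17.3 ± 2.30 TPM in CDA-HFD livers and 4.63 ± 0.180 TPM in ND livers (3.74-fold; log2 fold change 1.69 ± 0.11, adjusted p = 5.26e-06). In ND livers the range of *Fosl2* lay above that of *Fos*, whereas in CDA-HFD livers the ranges of both genes overlapped.

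*Fosb* and *Fosl1*, which encodes FRA-1, were too low to pass the filter. *Fosb* was at 0.779, 0.597 and 0.545 TPM in CDA-HFD livers and at 0.0857, 0.159 and 0.313 TPM in ND livers. These values came from 22, 16 and 17 reads in CDA-HFD livers and 2, 4 and 8 reads in ND livers. With reads pooled per diet, *Fosb* was 3.38-fold higher in CDA-HFD than in ND livers (exact 95% interval 1.85 to 6.57, for counting error only). With no filter on low values, its log2 fold change was 0.47 (adjusted p = 0.0105), under the fold limit, and that of *Fosl1*, described next, 0.48 (adjusted p = 0.034). In that fit 12.2% of 27155 genes rose. *Fosl1* was at 0.431, 0.681 and 0.130 TPM in CDA-HFD livers, from 6, 9 and 2 reads, and had 0 reads in all 3 ND libraries. Its pooled level in CDA-HFD livers was 4.87 times 0.0821 TPM, the level of 3 reads over the ND group, set as a floor in place of the 0 found. With the counting error of its own 17 reads included, the pooled ratio of CDA-HFD to ND was at least 3.55 (exact 95% bound, for counting error only). *Fosl1* shares 1163 of its 1864 exon bases with *Ccdc85b* on the opposite strand. The strand setting of the counting is not stated, and the study's methods do not say how reads over 2 genes were handled. Whether reads there were assigned to *Fosl1*, to *Ccdc85b* or to neither is therefore not known. *Ccdc85b* was at 10.1, 9.84 and 12.4 TPM in CDA-HFD livers and at 4.43, 4.71 and 4.15 TPM in ND livers, and its part in the *Fosl1* reads was not tested.

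The JUN genes supplied most of the AP-1 transcripts in both diets. *Jun*, the founding member and a target of JUN N-terminal kinases, lies at chr4:95049034-95052222 on the minus strand. Its level was 105, 76.4 and 83.5 TPM in CDA-HFD livers and 17.0, 27.3 and 24.9 TPM in ND livers. The diets did not overlap, although the highest and lowest libraries within each diet lay well apart. *Jun* averaged 88.2 ± 14.9 TPM in CDA-HFD livers and 23.1 ± 5.41 TPM in ND livers (3.83-fold; log2 fold change 1.90 ± 0.18, adjusted p = 4.41e-05). *Jun* is known to be controlled by AP-1 itself through TRE-like sites near its start, so its RefSeq promoter window (GRCm38.p6, chr4:95052173-95052472, minus strand) is shown. Capitals mark matches to TGANNTCA, the 8-base AP-1 and CREB motif, at positions −45 to −38 and 3 to 10 counted from the transcript start. These matches come from the letter search alone and were not compared with the known sites, which may differ from this motif and stand in lower case.
*Jun*: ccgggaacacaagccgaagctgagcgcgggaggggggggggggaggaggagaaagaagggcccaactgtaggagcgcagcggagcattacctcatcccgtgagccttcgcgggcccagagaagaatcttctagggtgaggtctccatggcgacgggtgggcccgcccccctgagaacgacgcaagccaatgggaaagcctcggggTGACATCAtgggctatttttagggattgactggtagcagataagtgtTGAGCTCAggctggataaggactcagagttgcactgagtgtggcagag

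*Junb* encodes a JUN protein with a weaker activation domain than that of JUN. Its level was 81.7, 105 and 86.2 TPM in CDA-HFD livers and 19.3, 25.4 and 22.3 TPM in ND livers. CDA-HFD replicate 2 was the highest library and ND replicate 1 the lowest, and the diets were well separated. *Junb* averaged 91.1 ± 12.6 TPM in CDA-HFD livers and 22.3 ± 3.01 TPM in ND livers (4.08-fold; log2 fold change 1.98 ± 0.13, adjusted p = 4.24e-06).

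*Jund*, the JUN gene known for steady transcription in resting cells, was the most abundant AP-1 gene in every library and changed least among the 8 tested, except after quantile normalization, where *Batf3* changed less. Its level was 126, 112 and 128 TPM in CDA-HFD livers and 60.7, 53.9 and 56.0 TPM in ND livers. The diets did not overlap, with 121.9 ± 8.43 TPM in CDA-HFD livers and 56.9 ± 3.47 TPM in ND livers (2.14-fold; log2 fold change 1.09 ± 0.08, adjusted p = 7.21e-06). Its log2 fold change was 0.69 after median-of-ratios scaling and 0.90 after quantile normalization, both under the fold limit, with adjusted p of 0.00011 and 2.72e-05. *Jund* shares 877 exon bases with *Gm11175* on the opposite strand, which was listed at 0 TPM in all 6 libraries. How reads over these shared bases were counted is not known either.

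*Batf* and *Batf3* encode short bZIP proteins that pair with JUN proteins and are known from immune cells. *Batf* acts in T and B cell differentiation, and *Batf3* is required in mice for the conventional dendritic cells that cross-present antigen. *Batf* was at 7.85, 9.16 and 9.40 TPM in CDA-HFD livers and at 1.19, 1.10 and 1.09 TPM in ND livers. The ND libraries were almost level, and the diets lay far apart, with means of 8.80 ± 0.832 TPM in CDA-HFD livers and 1.12 ± 0.0553 TPM in ND livers. The change was 7.83-fold (log2 fold change 2.20 ± 0.11, adjusted p = 1.47e-06). It rested on 56, 62 and 74 reads in CDA-HFD livers and on 7 reads in each ND liver. With reads pooled, the ratio was 7.86 (exact 95% interval 5.0 to 13.0, for counting error only).

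*Batf3* was at 3.85, 5.81 and 6.36 TPM in CDA-HFD livers and at 1.42, 1.68 and 1.66 TPM in ND livers. All CDA-HFD libraries were higher, with replicate 1 below the other two. *Batf3* averaged 5.34 ± 1.32 TPM in CDA-HFD livers and 1.59 ± 0.150 TPM in ND livers (3.36-fold; log2 fold change 1.27 ± 0.17, adjusted p = 0.000325), from 23, 33 and 42 reads in CDA-HFD livers and 7, 9 and 9 reads in ND livers. Its log2 fold change was 0.98 after median-of-ratios scaling and 0.58 after quantile normalization, both under the fold limit, with adjusted p of 0.00197 and 0.0323.

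Markers of the cells known to use these 2 genes were higher in CDA-HFD livers as well. Of 6 markers of conventional dendritic cells, 5 were tested and 3 rose, *Flt3*, *Clec9a* and *Cd209a*. Over all genes tested, 21.1% rose. *Flt3*, a growth factor receptor of dendritic cell precursors, averaged 4.82 ± 0.478 TPM in CDA-HFD livers and 0.364 ± 0.0700 TPM in ND livers. *Xcr1* and *Clec9a*, which mark the dendritic cells that depend on *Batf3*, averaged 1.76 ± 0.0746 and 3.50 ± 0.508 TPM in CDA-HFD livers, against 0.591 ± 0.201 and 0.926 ± 0.126 TPM in ND livers. *Xcr1* did not pass the fold limit (log2 fold change 0.80 ± 0.15). *Zbtb46*, of the same list, was not called either (log2 fold change 0.37 ± 0.13) and lay near the median of all genes tested, 0.32. *Zbtb46* averaged 3.20 ± 0.339 TPM in CDA-HFD livers and 2.25 ± 0.233 TPM in ND livers. Of 6 T cell markers, 5 rose, among them *Cd3e* (log2 fold change 1.43 ± 0.18) and *Trac* (1.95 ± 0.12). The summed level of the dendritic cell list was 20.8 to 22.0 TPM in CDA-HFD livers and 4.64 to 5.26 TPM in ND livers. In CDA-HFD livers *Cd209a* was the highest gene of that list, at 6.92 ± 0.601 TPM, against 0.278 ± 0.158 TPM in ND livers. The sum thus does not stand for *Xcr1* and *Clec9a* alone. For the T cell list the summed level was 28.7 to 35.3 TPM in CDA-HFD livers and 6.40 to 8.27 TPM in ND livers. No marker of either list was at 0 in all libraries. The part of these cells in the change of *Batf* and *Batf3* was not tested.

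*Maff* encodes a small MAF protein, which has a bZIP domain but no activation domain and pairs with NRF and BACH proteins. *Maff* was at 28.3, 22.6 and 23.7 TPM in CDA-HFD livers and at 3.67, 6.92 and 7.29 TPM in ND livers. ND replicate 1 lay below the other ND libraries, and all 3 ND libraries lay below the CDA-HFD range. *Maff* averaged 24.9 ± 3.01 TPM in CDA-HFD livers and 5.96 ± 1.99 TPM in ND livers (4.17-fold; log2 fold change 1.93 ± 0.22, adjusted p = 0.000105). RefSeq lists 3 promoter windows for *Maff*, and those with a motif match are shown with the match in capitals (GRCm38.p6, plus strand). Window 2 is at chr15:79347270-79347569 with the match at −29 to −22, and window 3 at chr15:79348152-79348451 with the match at −45 to −38.
*Maff* window 2: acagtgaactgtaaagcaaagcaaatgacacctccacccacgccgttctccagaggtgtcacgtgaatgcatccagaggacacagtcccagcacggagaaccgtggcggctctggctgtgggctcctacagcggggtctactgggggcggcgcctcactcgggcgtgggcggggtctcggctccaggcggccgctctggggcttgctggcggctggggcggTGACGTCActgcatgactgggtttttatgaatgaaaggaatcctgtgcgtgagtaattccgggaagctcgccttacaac
*Maff* window 3: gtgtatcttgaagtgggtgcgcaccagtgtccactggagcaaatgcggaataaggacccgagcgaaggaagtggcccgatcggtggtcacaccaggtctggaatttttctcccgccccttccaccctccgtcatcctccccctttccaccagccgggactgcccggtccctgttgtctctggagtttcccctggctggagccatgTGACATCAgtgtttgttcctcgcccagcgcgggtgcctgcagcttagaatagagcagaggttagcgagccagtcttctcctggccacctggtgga

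RefSeq promoter windows were at hand for 9 of the 10 genes, 11 windows in all, and were searched on both strands. TGANTCA, the AP-1 motif known as the TPA response element, was in 7.81% of all 32851 promoter windows of the mouse and in the windows of 0 of the 9 genes. TGANNTCA, the cAMP response element type of motif, was in 14.1% of all windows, or in at least 1 window of 15.9% of genes, and in windows of 3 of the 9 genes. The 2 motifs differ by 1 base in length, so that a site cannot match both at the same position. The matches were those printed for *Jun* and *Maff* and TGAAATCA at −61 to −54 in the window of *Jund*, which ends at position 70697788 of chromosome 8, before the gene's start in GENCODE at 70698949. The full cAMP response element TGACGTCA was among them in *Maff* window 2. The CArG box bound by serum response factor was in 1.63% of all windows, or in at least 1 window of 1.81% of genes, and in those of 0 of the 9 genes. Bases more than 250 before a start or more than 50 after it were not searched. A gene without a match, *Fos* included, may therefore hold such a site outside its window. A match is a run of letters in a fixed window and was not tested for binding.

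The order of levels within the family differed little between the diets. In CDA-HFD livers, *Jund* was followed by *Junb* and *Jun*, then by *Maff*, *Fosl2*, *Fos*, *Batf*, *Batf3*, *Fosb* and *Fosl1*. Libraries of neighbours in that order overlapped for *Junb* and *Jun*, *Fosl2* and *Fos*, and *Fosb* and *Fosl1*. In ND livers the order was *Jund*, *Jun*, *Junb*, *Maff*, *Fosl2*, *Batf3*, *Fos*, *Batf*, *Fosb* and *Fosl1*. There, neighbours overlapped for *Jun* and *Junb*, *Maff* and *Fosl2*, *Batf3* and *Fos*, and *Fos* and *Batf*. *Batf3* therefore did not differ from *Fos* beyond the spread of the ND libraries, whereas in CDA-HFD livers *Fos* lay above *Batf* and *Batf* above *Batf3* with no overlap.

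**Figure D2:**
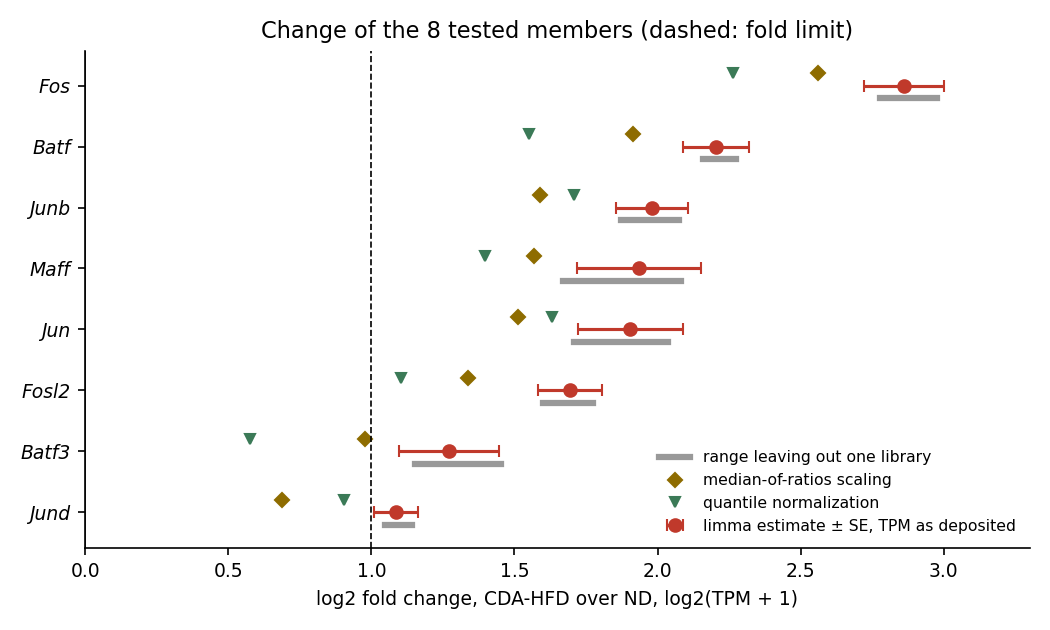
Log2 ratio of CDA-HFD to ND for the 8 tested genes, on the scale of log2(TPM + 1), with red points and bars for the limma estimate ± SE, grey bars for the range when a library was left out, and diamonds and triangles for other scalings. All values lie above 0, *Fos* leads at 2.86, and only *Batf3* and *Jund* pass below the dashed fold limit of 1, under both other scalings.

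The summed level of the 10 genes was 374 ± 14.4 TPM in CDA-HFD livers and 117 ± 6.55 TPM in ND livers, a ratio of 3.20. By class, the ratio was 5.55 for the FOS genes (33.6 ± 4.12 TPM in CDA-HFD livers and 6.06 ± 0.346 TPM in ND livers) and 5.21 for the BATF genes (14.1 ± 2.15 TPM in CDA-HFD livers and 2.71 ± 0.0959 TPM in ND livers). It was 2.95 for the JUN genes, at 301 ± 9.63 TPM in CDA-HFD livers and 102 ± 4.86 TPM in ND livers, and 4.17 for *Maff*. The makeup of the summed level therefore also differed between the diets. *Jund* held 32.2, 30.8 and 34.8% of it in CDA-HFD livers and 55.3, 44.1 and 47.1% in ND livers, with no overlap. The mean share of *Jund* was 32.6 ± 2.02% in CDA-HFD livers and 48.8 ± 5.83% in ND livers, a difference of −16.2 percentage points. The exact two-sided permutation test gave p = 0.1, the smallest value that 3 against 3 libraries allow, so that no share could pass a threshold of 0.05, with or without adjustment.

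The JUN genes together held 80.6 ± 0.547% in CDA-HFD livers and 87.4 ± 0.886% in ND livers, and the FOS genes 8.97 ± 0.776% in CDA-HFD livers and 5.20 ± 0.564% in ND livers. The share of *Fos* was 4.07 ± 0.289% in CDA-HFD livers and 1.08 ± 0.346% in ND livers, and that of *Batf* 2.36 ± 0.304% in CDA-HFD livers and 0.964 ± 0.103% in ND livers, both without overlap (exact permutation p = 0.1 each, over 14 shares compared). *Junb* and *Maff* had larger shares in every CDA-HFD library too, at 24.5 ± 4.11% and 6.64 ± 0.541%, against 19.0 ± 1.57% and 5.05 ± 1.49% in ND livers. The ranges for *Maff* lay close, with 6.21% in the lowest CDA-HFD library and 6.13% in the highest ND library. The difference for *Maff*, 1.59 percentage points, was 0.745 without ND replicate 1, and that for *Junb*, 5.43 points, was 3.18 without CDA-HFD replicate 2. With *Jund* left out of the sum, the difference for *Junb* turned to −1.06 percentage points and that for *Maff* was 0.126. The shares of *Jun*, *Fosl2*, *Fosb* and *Batf3* overlapped between the diets, and the mean differences of these 4 genes were negative as well with *Jund* left out.

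**Figure D3:**
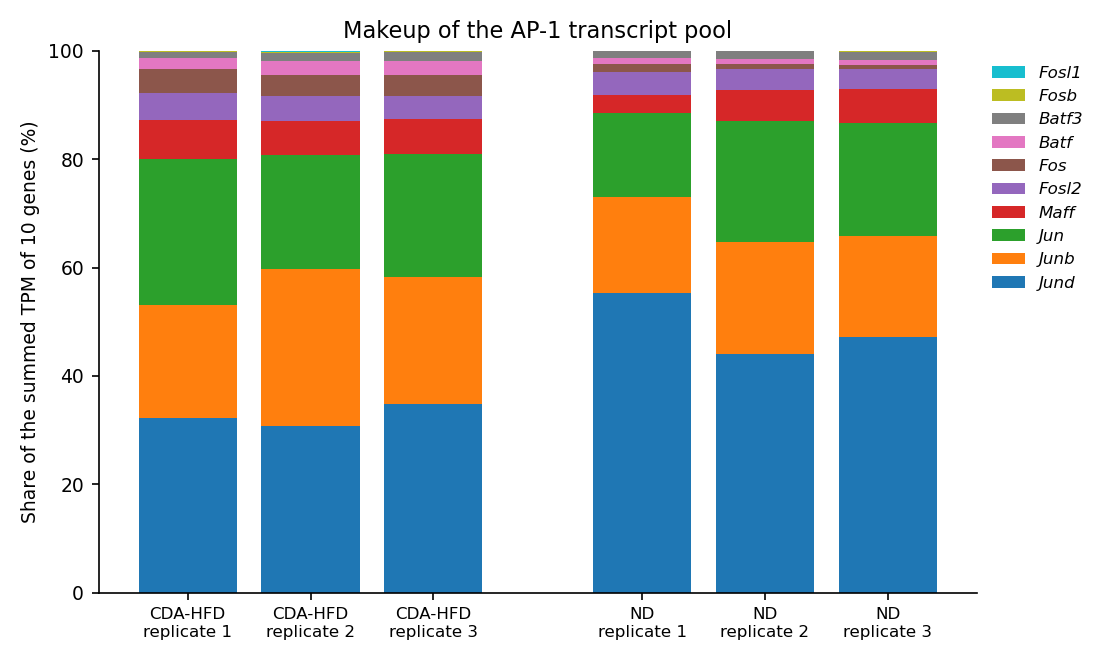
Share of each AP-1 gene in the summed TPM of the 10 genes, in percent, as 1 stacked bar per library with the 3 CDA-HFD libraries left of the 3 ND libraries. The bottom segment, *Jund*, spans 30.8 to 34.8% in CDA-HFD livers and 44.1 to 55.3% in ND livers.

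Within a diet, the 10 genes did not move as a block. CDA-HFD replicate 1 was the highest CDA-HFD library for *Fos*, *Fosb*, *Fosl2*, *Jun* and *Maff* and the lowest for *Junb*, *Batf* and *Batf3*. ND replicate 1 was the lowest ND library for *Fosb*, *Jun*, *Junb*, *Batf3* and *Maff* and the highest for *Fos*, *Jund* and *Batf*. Replicate 1 stood out more among 18 immediate early genes outside the family, tested or not. There, CDA-HFD replicate 1 was the highest CDA-HFD library for 12 genes and the lowest for 1. ND replicate 1 was the highest ND library for 10 of them, *Nr4a1* included, and the lowest for 6. When any single library was left out, all 8 tested AP-1 genes still rose. The log2 fold change was then 2.78 to 2.98 for *Fos*, 1.71 to 2.04 for *Jun* and 1.05 to 1.14 for *Jund*. *Maff* had the widest range, 1.67 to 2.08, with the lowest value without ND replicate 1.

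Related genes were set beside the family. Each count of a list stands against the 21.1% of all genes tested that rose and the 3.79% that fell. Among 14 tested bZIP genes outside the 10 that pair or compete with AP-1 proteins, 6 rose and 0 fell, and the median change was 0.69 on the log2 scale. The largest rise was that of *Atf3*, a stress-induced partner of JUN, at 94.6 ± 6.50 TPM in CDA-HFD livers and 2.19 ± 0.909 TPM in ND livers (log2 fold change 4.94 ± 0.18, adjusted p = 2.39e-07). *Jdp2*, whose protein represses AP-1 sites, followed at 1.64 ± 0.25. *Maf*, also chosen after its value was seen, rose by 1.02 ± 0.08 and was under the fold limit without CDA-HFD replicate 1 (0.98) and without ND replicate 3 (0.995). After median-of-ratios scaling, as after quantile normalization, 3 of the 14 rose and 1, *Bach2*, fell. Of all 14730 genes tested, 2300 rose after median-of-ratios scaling and 1852 after quantile normalization. *Bach2*, a repressor that pairs with small MAF proteins, was chosen after its value was seen. Its level was 1.44 ± 0.293 TPM in CDA-HFD livers and 3.39 ± 1.08 TPM in ND livers (log2 fold change −0.83 ± 0.19). *Bach2* also fell without a change of scaling. This was so with a pseudocount of 0.1 in place of 1 (log2 fold change −1.15, adjusted p = 0.00588) and with voom on recovered reads (−1.25, adjusted p = 0.000677).

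Of 18 tested genes of the MAP kinase pathways that act on AP-1, 4 rose and 0 fell, a share of rises near the 21.1% of all genes tested. Their median of 0.30 was near the 0.32 of all genes. *Map3k8*, a kinase that activates the ERK pathway, had a log2 fold change of 1.67 ± 0.12, and *Mapk3*, which encodes ERK1, 1.50 ± 0.07. *Map3k1* and *Mapk13* were the others that rose, and with quantile normalization *Mapk3* alone remained. The transcripts of the JUN N-terminal kinases *Mapk8* and *Mapk9* were not called (log2 fold changes −0.33 ± 0.11 and 0.12 ± 0.07). Of 9 tested dual-specificity phosphatases, which switch MAP kinases off, 6 rose, led by *Dusp5* (2.08 ± 0.14) and *Dusp8* (1.78 ± 0.22). *Dusp6* (1.22 ± 0.32) was under the fold limit without ND replicate 2 (0.96). After median-of-ratios scaling and after quantile normalization 4 of the 9 rose, with *Dusp6* at 0.83 and 0.99 and *Dusp7* at 0.98 and 0.71. *Dusp1*, itself an immediate early gene, was at 38.8 ± 11.7 TPM in CDA-HFD livers and 38.3 ± 8.04 TPM in ND livers. Of 6 serum response factor and partner genes, *Mrtfa* rose (1.64 ± 0.10). *Mrtfb* lay just under the fold limit (0.97 ± 0.12). It passed the limit without CDA-HFD replicate 3 (1.08) and with pseudocounts of 0.1 (1.04) and 0.5 (1.01) in place of 1.

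Immediate early genes outside the family rose in 11 of 15 tested cases (median change 2.19 on the log2 scale). Those not called were *Ier2* (log2 fold change 0.47 ± 0.08), *Nr4a2* (0.39 ± 0.24), *Zfp36* (0.65 ± 0.19) and *Klf2* (0.74 ± 0.09). *Gadd45b*, a stress-response gene, had a log2 fold change of 3.81 ± 0.19, and *Klf6*, a zinc finger factor, 3.38 ± 0.11. The level of *Klf6* was 99.9 ± 7.86 TPM in CDA-HFD livers and 8.70 ± 1.22 TPM in ND livers. The call of *Ccn1* depended on single libraries, with adjusted p of 0.0544 without CDA-HFD replicate 1, 0.0548 without ND replicate 2 and 0.0534 without ND replicate 3. It was also lost after median-of-ratios scaling (log2 fold change 0.85, adjusted p = 0.0646) and after quantile normalization (0.73, adjusted p = 0.0854). Among genes known as AP-1 targets, 20 of 24 tested rose and 0 fell, with a median of 2.52. *Timp1*, an inhibitor of matrix metalloproteinases, was at 49.3 ± 4.60 TPM in CDA-HFD livers and 0.641 ± 0.412 TPM in ND livers (log2 fold change 4.97 ± 0.19). *Anxa1*, a regulator of inflammation, had a log2 fold change of 4.61 ± 0.12. *Mmp9*, *Il1b*, *Vegfa* and *Krt18* were the tested targets that were not called.

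**Figure D4:**
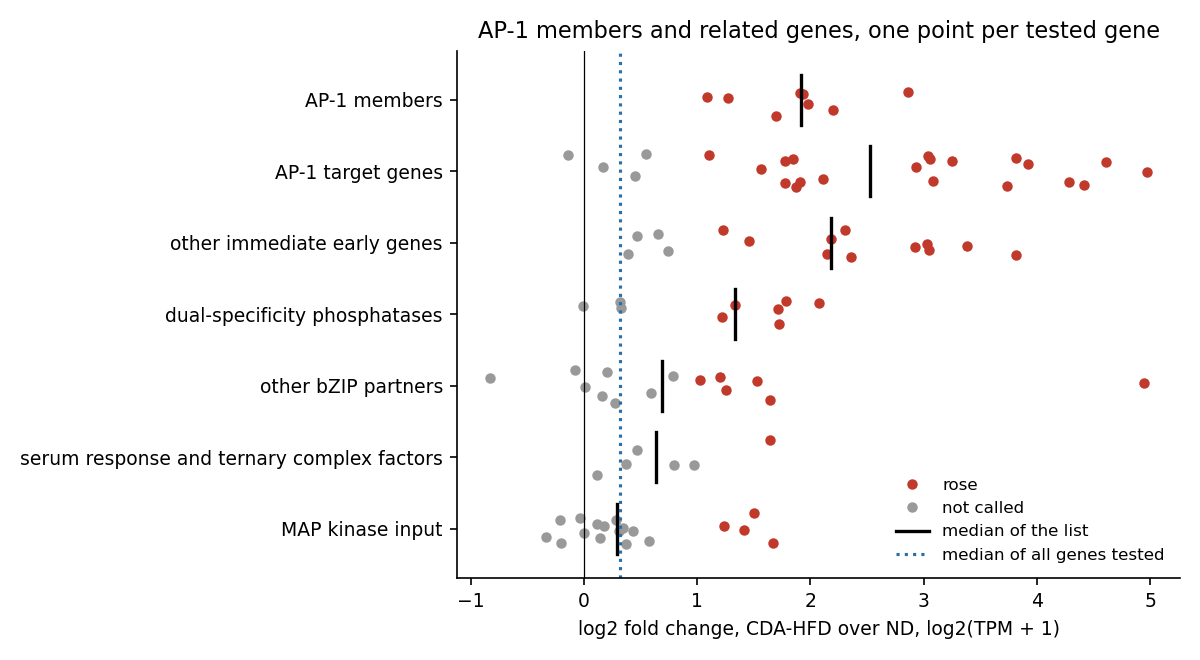
Log2 ratio of CDA-HFD to ND, on the scale of log2(TPM + 1), for the tested genes of the AP-1 family and of 6 related lists, 1 point per gene, red where the gene rose, with a black line at each list's median and a dotted line at the median of all genes tested (0.32). The AP-1 genes lie between 1.09 and 2.86, and the MAP kinase genes have a median near the dotted line.

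Markers of several other liver cells rose with the family, whereas those of hepatocytes and endothelial cells did not. Of 6 macrophage markers all rose, with a summed level of 3240 to 3543 TPM in CDA-HFD livers and 285 to 323 TPM in ND livers. All 5 neutrophil markers, all 5 cholangiocyte markers and 5 of 6 stellate cell and myofibroblast markers rose as well, and so did both tested markers of the 5 for B cells. Their summed levels were 116 to 177, 118 to 128, 307 to 362 and 11.9 to 14.3 TPM in CDA-HFD livers, against 19.9 to 28.3, 9.92 to 11.6, 53.1 to 54.5 and 4.14 to 5.99 TPM in ND livers. Of 6 hepatocyte markers, *Serpina1c* fell and 0 rose, with a sum of 23599 to 26224 TPM in CDA-HFD livers and 32150 to 33049 TPM in ND livers. Of 5 endothelial markers, *Kdr* fell and 0 rose (106 to 144 TPM in CDA-HFD livers and 160 to 171 TPM in ND livers). No marker of these lists was at 0 in all 6 libraries. The part of these cells in the changes of the AP-1 genes was not tested.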

How the data were processed

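Whole-liver RNA-seq of 3 CDA-HFD and 3 ND mice was analysed, with groups and replicate numbers taken from the labels. Their extraction text speaks of sorted cells although the source is liver. The tools named in the submitters' processing notes are Trimmomatic 0.39.0 for trimming, HISAT2 2.2.1 for alignment, with GRCm38 (mm10) as the build, and featureCounts 2.0.1 for counting. The study's methods describe duplicate removal, and the authors deposited TPM, each library summing to 1000000. The strand setting and the annotation release are not given in the sources used here.

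Reads were recovered from the product of TPM and GENCODE M21 merged exon length, which for 98.4% to 98.5% of values above 0 was a whole multiple, to 0.01 reads, of a step fixed in each library (53149 genes matched). The 14730 genes that averaged 1 TPM or more were tested by diet alone, using limma 3.58.1 (R 4.3.3) with a trended eBayes on log2(TPM + 1), a pseudocount of 1 and Benjamini-Hochberg adjustment. Lists are described by counts and medians. The fit was tested on simulated data. Named from each related list were the called genes with the 2 largest changes in each direction; others named from them were chosen after their values were seen. The AP-1 genes, the lists and the rule were chosen with earlier results of these data known.

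Alternatives were other pseudocounts, filters and scalings, no fold limit, a replicate block, leaving out each library and voom on recovered reads, the last chosen after seeing the data. Replicates of a diet differed by more than sampling of reads (mean chi-square per gene of 10.5 to 13.2 over genes with at least 50 reads). RefSeq promoter windows are of GRCm38.p6.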

Additional observations from a re-analysis of the deposited data

How the results depend on the processing

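The AP-1 genes kept their direction under every alternative run, and 114 of their 118 alternative values stayed on their side of the threshold. The exceptions were *Jund* and *Batf3* under median-of-ratios scaling and quantile normalization, which also left 6 risen AP-1 genes each. With a mean of at least 5 TPM, 6 were tested and 6 rose, and with no fold limit, both pseudocounts or voom, 8 rose. Over all genes tested, leaving out each library gave 3012 to 3188 rises and 546 to 559 falls, with 8 AP-1 rises each time. Rises over all genes numbered 1914 with a mean of at least 5 TPM (10872 genes tested), 1852 with quantile normalization and 7604 with no fold limit, and falls 1033 after median-of-ratios scaling, 1135 after quantile normalization and 2117 with no fold limit. Of 86 related genes, 12 lost their call somewhere, 2 gained a call other than through the fold limit, and 0 reversed. With *Jund* left out of the sum, the share difference of *Junb* reversed to −1.06 percentage points, and those of *Jun* (−3.11), *Fosl2* (−1.02), *Batf3* (−0.53) and *Fosb* (−0.049), whose diets overlapped, also turned negative. Same-numbered libraries correlated at 0.086, 0.039 and 0.089 in their deviations from the diet means, each library best with its own number. Libraries of unlike number correlated at −0.087 to 0.005. These correlations were weak, and the main fit did not treat the numbers as pairs. The replicate block gave 3128 rises and 559 falls and 8 risen AP-1 genes, changing no call of a named gene. Depth limits *Fosb* and *Fosl1*, which had at most 22 reads in a library.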
